A study of Mus musculus with 6 samples.

Results

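Metabolic nuclear receptors are ligand-regulated transcription factors that adjust gene expression to fatty acids, sterols, bile acids, foreign chemicals and hormones. The 10 genes described here, chosen by symbol, are Ppara, Ppard, Pparg, Nr1h3, Nr1h4, Nr1i2, Vdr, Nr3c1, Rxra and Esrra. All 10 are present among the 24786 gene symbols of the count table, and all 10 had enough counts to be tested. RNA was sequenced from wild-type mouse intestinal organoids, cultured epithelial structures grown from gut stem cells, that had been dispersed into single cells for 10 min. The 3 tyramine libraries came from organoids kept for 16 h with 100 µM tyramine, a trace amine made from tyrosine by some gut bacteria. The 3 control libraries carry DMSO in their titles, while the series' design speaks of control medium, and a solvent of the tyramine cultures was not given in the sources used here. Both groups are wild type and no transgene or deletion is named. The age and sex of the donor mice, the gut segment and whether replicates were separate cultures are also not given. The spread behind every p-value is therefore that between these libraries, and it may be technical.

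Most of these receptors bind DNA as pairs with the retinoid X receptor, whose alpha form is encoded by Rxra. The pairs sit on response elements built from repeats of a short half-site, hold corepressors without ligand and exchange them for coactivators with it. Nr3c1, the glucocorticoid receptor, instead rests in the cytosol with chaperones and acts mainly as a homodimer or tethered monomer, and Esrra encodes an orphan receptor with no established natural hormone. In the intestine, the group governs lipid uptake and oxidation, sterol efflux, bile acid return, drug clearance, calcium absorption and mitochondrial enzyme supply.

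With tyramine, 4 of the 10 receptor genes fell and 0 rose. Those that fell were Vdr, the vitamin D receptor, Nr1i2, the xenobiotic receptor PXR, Nr1h4, the bile acid receptor FXR, and Esrra, the estrogen-related receptor alpha. Their mean normalised read counts were 4.47-fold, 3.15-fold, 2.12-fold and 1.89-fold lower than in controls. The other 6 did not pass the threshold, an adjusted p under 0.05 in edgeR's quasi-likelihood test with Benjamini-Hochberg adjustment over 12139 genes. Among all genes tested, 25.8% were called, 13.3% falling and 12.5% rising, so a call in this comparison is common.

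Library totals ran from 28316372 to 35035955 counts. Tyramine replicate 3 stood apart from its group: the chi-square per degree of freedom between libraries was 98.5 and 93.2 for its pairs with tyramine replicates 1 and 2, 52.5 between those and 26.7 to 34.9 among controls. Epithelial markers were present in every library, with summed levels of 20170 to 21730 CPM (read counts scaled to a common library size) in controls and 17940 to 20240 CPM with tyramine, while 4 of the 10 fell, 2 rose and 4 did not pass. All 10 enterocyte markers tested fell, from summed levels of 13270 to 13840 CPM to 2983 to 3190 CPM, and 7 of 8 proliferation markers fell, from 2246 to 2766 CPM to 164.9 to 185.3 CPM. Markers of other cell types were low: fibroblast markers summed to 8.93 to 9.74 CPM, immune markers to 4.95 to 9.57 CPM, and endothelial markers to 0.209 to 2.61 CPM over all libraries. Adipocyte markers summed to 3.19 to 4.30 CPM in controls and 7.52 to 8.90 CPM with tyramine, groups that did not overlap. The adipocyte markers Plin1 and Retn and the immune marker Cd79a had 0 counts in all 6 libraries, and most of the adipocyte sum was the lipase gene Lipe (edgeR adjusted p = 0.11). In these bulk samples, fewer cells of a type and less RNA per cell cannot be told apart, and the part that the enterocyte and proliferation changes had in the receptor values was not tested.

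Upstream sequences of the 4 receptors that fell are shown so that the elements that nuclear receptors bind can be looked for in them. Whether these genes share a regulator was not tested. They come from RefSeq on GRCm38.p6, in which 9 of the 10 members had at least 1 entry used here (13 windows of 250 bases before a start). No window of Nr3c1 was used. Bases inside a GENCODE M21 exon were trimmed from the stretches printed. For Vdr and Nr1h4 the RefSeq start lies inside the span that GENCODE gives the gene, so these stretches lie upstream of an internal start. Each is written 5′ to 3′ along the gene's strand, and capitals mark the nuclear receptor half-site AGGTCA or the GC box GGGCGG on either strand. The positions are, in order, chr16:38294825-38295074 for Nr1i2, chr15:97908311-97908546 for Vdr, chr10:89506659-89506908 for Nr1h4 and chr19:6921814-6922058 for Esrra, all on the minus strand.
Nr1i2: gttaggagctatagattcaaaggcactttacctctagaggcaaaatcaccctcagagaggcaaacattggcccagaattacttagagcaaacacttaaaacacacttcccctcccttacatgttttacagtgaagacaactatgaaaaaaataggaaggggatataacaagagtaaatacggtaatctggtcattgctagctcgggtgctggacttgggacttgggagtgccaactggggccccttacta
Vdr: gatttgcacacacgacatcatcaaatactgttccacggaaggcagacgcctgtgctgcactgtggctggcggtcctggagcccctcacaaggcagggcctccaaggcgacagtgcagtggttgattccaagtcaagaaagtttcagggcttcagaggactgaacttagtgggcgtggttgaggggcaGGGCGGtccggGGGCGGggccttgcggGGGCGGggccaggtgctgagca
Nr1h4: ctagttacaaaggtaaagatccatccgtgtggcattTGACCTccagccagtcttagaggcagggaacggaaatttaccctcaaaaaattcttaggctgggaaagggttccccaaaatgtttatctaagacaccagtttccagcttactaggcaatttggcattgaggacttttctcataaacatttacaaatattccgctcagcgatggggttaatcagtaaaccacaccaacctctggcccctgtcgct
Esrra: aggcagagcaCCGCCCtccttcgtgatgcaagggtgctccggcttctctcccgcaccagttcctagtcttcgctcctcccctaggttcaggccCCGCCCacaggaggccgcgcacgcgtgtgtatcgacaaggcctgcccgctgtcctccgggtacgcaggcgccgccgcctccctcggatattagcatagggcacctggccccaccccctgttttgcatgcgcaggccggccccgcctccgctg
These stretches differ in base composition. Their GC content was 44% for Nr1i2, 61.9% for Vdr, 44.4% for Nr1h4 and 68.6% for Esrra. The half-site appeared once upstream of Nr1h4, and GC boxes appeared 3 times upstream of Vdr and 2 times upstream of Esrra. Neither was found in the Nr1i2 stretch.

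Over all 13 windows of these 9 members, untrimmed, 4 held the half-site (2 of Pparg, 1 of Nr1h4 and 1 of Rxra) and 7 held a GC box. Among 32817 RefSeq windows of 250 bases, 14% held the half-site and 32.7% a GC box. The direct repeat of AGGTCA with 1 base between its copies, the HNF4 motif CAAAGTCCA and the HNF1 half-site GTTAAT were also searched on both strands. The first and second were in 0 of the 13 windows, against 0.0335% and 0.384% of all windows, and the third was in 1, upstream of Nr1h4, against 6.44%. The direct repeat contains the half-site, and a match of letters is a description of these windows only.

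Nr1i2, the receptor that switches on drug-metabolising enzymes and efflux pumps, lies at chromosome 16, 38248323 to 38294824, minus strand, GRCm38. Its level was 239, 227 and 265 CPM in control replicates 1 to 3 and 97.2, 86.2 and 48.5 CPM in tyramine replicates 1 to 3. Every tyramine library lay below every control library, and tyramine replicate 3 was the lowest. The mean fell from 244 ± 19.4 to 77.3 ± 25.5 CPM (SD, n = 3 per group), a log2 fold change of -1.66 (SE 0.22; edgeR adjusted p = 0.00053).

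Nr1h4, which senses bile acids and restrains their uptake and synthesis, had a similar layout (chromosome 10, 89454234 to 89533585, minus strand). Controls held 44.0, 52.6 and 46.5 CPM and tyramine libraries 24.1, 25.3 and 18.0 CPM. The groups did not overlap, and tyramine replicate 3 was again the lowest. The mean fell from 47.7 ± 4.45 to 22.5 ± 3.92 CPM (log2 fold change -1.08, SE 0.21; edgeR adjusted p = 0.0042).

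Vdr, through which vitamin D raises intestinal calcium absorption, had the largest fitted change of the 10 (chromosome 15, 97854425 to 97910630, minus strand). Controls held 96.0, 94.5 and 74.6 CPM and tyramine libraries 22.5, 14.6 and 22.2 CPM. Here tyramine replicate 2 was the lowest, and the lowest control was over 3 times the highest tyramine library. The mean fell from 88.4 ± 12.0 to 19.8 ± 4.51 CPM (log2 fold change -2.16, SE 0.22, 95% interval -2.64 to -1.68; edgeR adjusted p = 7.9e-05).

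Nr3c1, the receptor for corticosterone, did not pass the threshold. Controls held 64.8, 51.6 and 62.7 CPM and tyramine libraries 56.0, 54.1 and 49.7 CPM. The groups overlapped, and the log2 fold change was -0.16 with a 95% interval of -0.52 to 0.20 (edgeR adjusted p = 0.52). A smaller change in either direction was not detectable with these libraries.

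Esrra, a regulator of mitochondrial and fatty acid oxidation genes, lies at chromosome 19, 6910977 to 6921813, minus strand. Controls held 71.5, 71.2 and 62.5 CPM and tyramine libraries 39.9, 42.3 and 26.3 CPM. The groups were apart, with tyramine replicate 3 lowest. The mean fell from 68.4 ± 5.14 to 36.1 ± 8.63 CPM (log2 fold change -0.92, SE 0.21; edgeR adjusted p = 0.0088). Its annotated exons share 73 bases with Trmt112 on the opposite strand and 91 bases with the microRNA gene Mir6990, and the strand setting of the counting is not given.

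The 3 peroxisome proliferator-activated receptors, which respond to fatty acids, differed in layout. Ppara, the form tied to fatty acid oxidation and ketogenesis (chromosome 15, 85734983 to 85802819, plus strand), held 30.8, 26.1 and 26.8 CPM in controls and 17.1, 5.60 and 31.8 CPM with tyramine. Tyramine replicate 3 was above every control and replicate 2 was far below, a 5.68-fold span within the group. The log2 fold change was -0.62 (95% interval -1.71 to 0.47; edgeR adjusted p = 0.41), but -1.30 with an adjusted p of 0.042 without tyramine replicate 3 and -0.19 without tyramine replicate 2.

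Ppard, the broadly expressed form (chromosome 17, 28232700 to 28301474, plus strand), held 25.8, 39.9 and 33.2 CPM in controls and 48.9, 52.2 and 47.6 CPM with tyramine. It was the 1 receptor of the 10 whose tyramine libraries all lay above its controls, and its tyramine values were close together. The log2 fold change was 0.59 (95% interval 0.13 to 1.04), and the edgeR adjusted p of 0.060 missed the threshold. DESeq2 and limma-voom put it at adjusted p-values of 0.044 and 0.041, with log2 fold changes of 0.58 and 0.59, so this call depends on the tool. Without control replicate 1 the log2 fold change was 0.43 and the edgeR adjusted p 0.21.

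Pparg, known from adipocytes and also present in colon epithelium, did not pass the threshold (chromosome 6, 115360951 to 115490399, plus strand). Controls held 61.3, 58.8 and 62.0 CPM and tyramine libraries 66.0, 59.7 and 70.5 CPM. The ranges overlapped, and the log2 fold change was 0.11 (95% interval -0.21 to 0.43; edgeR adjusted p = 0.65). The adipocyte gene Adipoq had 0 to 2 counts per library.

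Nr1h3, the oxysterol receptor LXR alpha, which raises sterol efflux, lies at chromosome 2, 91184061 to 91202834, minus strand. Controls held 11.6, 20.0 and 14.5 CPM and tyramine libraries 9.71, 9.12 and 0.592 CPM, the last resting on 17 counts against 275 and 290 in the other tyramine libraries. Every tyramine value was below every control value, yet the log2 fold change of -1.25 had a wide 95% interval of -2.94 to 0.45 (edgeR adjusted p = 0.28). It ranged from -0.71 without tyramine replicate 3 (adjusted p = 0.17) to -1.97 with limma-voom (adjusted p = 0.070), and was -1.79 with a replicate block and -1.66 without tyramine replicate 1, with no call under any of the 14 alternatives. Its exons share 34 bases with Gm13783 on the same strand.

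Rxra, the shared partner of most of these receptors (chromosome 2, 27676440 to 27762957, plus strand), held 36.2, 34.6 and 28.6 CPM in controls and 15.3, 20.5 and 26.8 CPM with tyramine. The groups did not overlap, but tyramine replicate 3 came within 2 CPM of the lowest control. The log2 fold change was -0.67 (95% interval -1.24 to -0.09) and the edgeR adjusted p of 0.089 missed the threshold. Without tyramine replicate 3 the log2 fold change was -0.89 and the edgeR adjusted p 0.022. Without tyramine replicate 1 they were -0.48 and 0.18.

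**Figure D1:**
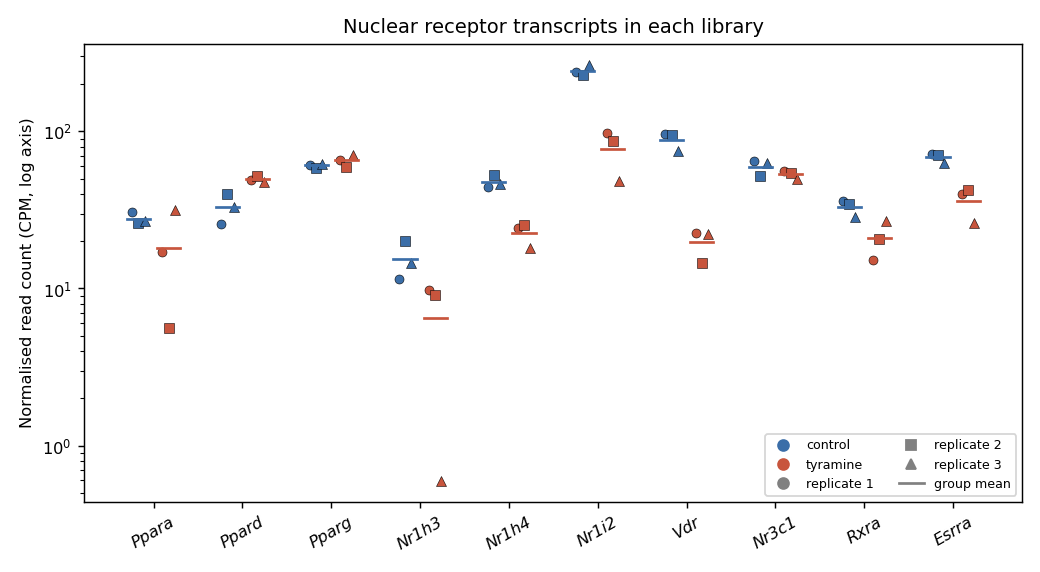
Normalised read count (CPM, log axis) of each of the 10 receptor genes in the 3 control (blue) and 3 tyramine (red) libraries, with symbols for replicates and bars for group means. The 4 genes that fell show separated groups, whereas Nr1h3 in tyramine replicate 3 stands alone at 0.592 CPM and Ppara spreads from 5.60 to 31.8 CPM with tyramine.

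Across the 10, groups did not overlap for 7 genes, 6 with tyramine below control and 1 above. Over all genes tested, 44.5% had groups that did not overlap, 23.6% with tyramine below and 20.9% above. The lowest tyramine value was in replicate 3 for 6 receptors, in replicate 2 for 3 and in replicate 1 for Rxra. The coefficient of variation was larger with tyramine than in controls for 8 of the 10, beside the wider spread of the tyramine libraries over all genes given above, whose part in this was not tested. It reached 72.3% for Ppara and 78.8% for Nr1h3. Ppard and Nr3c1 were the exceptions, at 4.83% and 6.05% with tyramine against 21.4% and 11.8% in controls. Summed over the 10 genes, controls held 676.4 to 680.8 CPM and tyramine libraries 342 to 396.8 CPM.

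The median log2 fold change of the 10 was -0.79, against 0.00 over all tested genes. Vdr, Nr1i2, Nr1h4 and Esrra kept their calls under all 14 alternatives tried, including each library left out, with log2 fold changes of -2.27 to -1.98, -1.85 to -1.41, -1.18 to -0.95 and -1.05 to -0.73. Their highest edgeR adjusted p-values, each with 1 control library left out, were 0.0013, 0.0056, 0.032 and 0.047 in the same order. The call of Esrra thus came close to the threshold. Without tyramine replicate 3, 6 receptors were called, Ppara and Rxra being added.

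**Figure D2:**
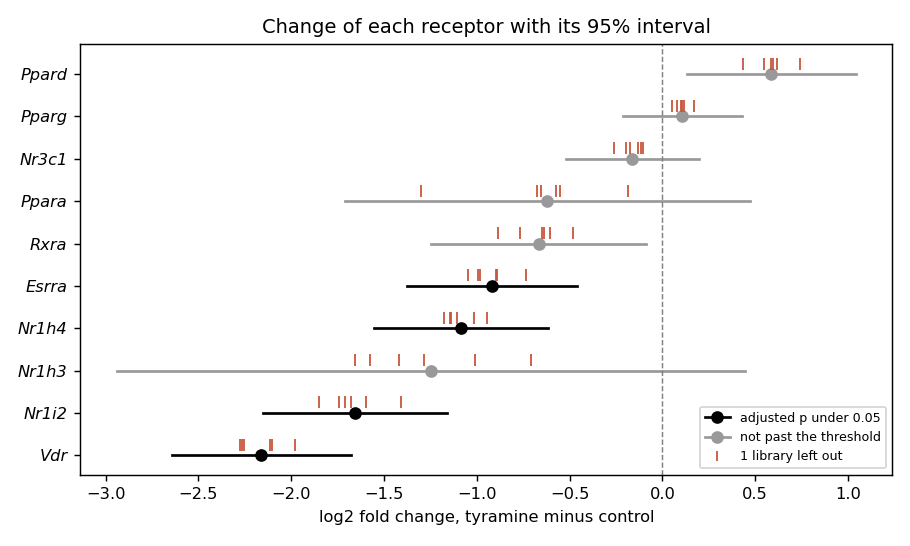
Log2 fold change (tyramine minus control) of each receptor gene with its 95% interval, black where the adjusted p was under 0.05 and grey otherwise, and red ticks for the value with each of the 6 libraries left out. Vdr, Nr1i2, Nr1h4 and Esrra lie wholly below 0, and the interval of Nr1h3 runs from -2.94 to 0.45.

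Levels of different genes can be compared only per length, so CPM were divided by kilobases of annotated exon. This length joins all annotated exons of a gene. Which transcript forms were expressed is not known here, and the order between genes depends on the length used. On this scale Nr1i2 led in controls at 95.5 ± 7.61 CPM per kilobase, with every library above all other members. Nr1h4 (20.7 ± 1.93) and Pparg (20.6 ± 0.576) followed with overlapping ranges, then Vdr (15.6 ± 2.12) and Esrra (15.6 ± 1.17), which also overlapped. Below a gap came Nr3c1 (7.77 ± 0.920), Ppara (7.26 ± 0.660), Nr1h3 (6.11 ± 1.70), Rxra (6.06 ± 0.727) and Ppard (4.39 ± 0.937 CPM per kilobase), each overlapping its neighbour in the order.

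With tyramine the order changed. Nr1i2 (30.3 ± 10.0 CPM per kilobase) and Pparg (22.1 ± 1.85) came first and now overlapped, because Nr1i2 was at 19.0 in tyramine replicate 3. Vdr went from rank 4 to rank 9, at 3.50 ± 0.798 CPM per kilobase, and Ppard went from rank 10 to rank 6, at 6.60 ± 0.319. Ranges overlapped for every pair of neighbours with tyramine except Pparg and Nr1h4, which was at 9.76 ± 1.70 CPM per kilobase.

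**Figure D3:**
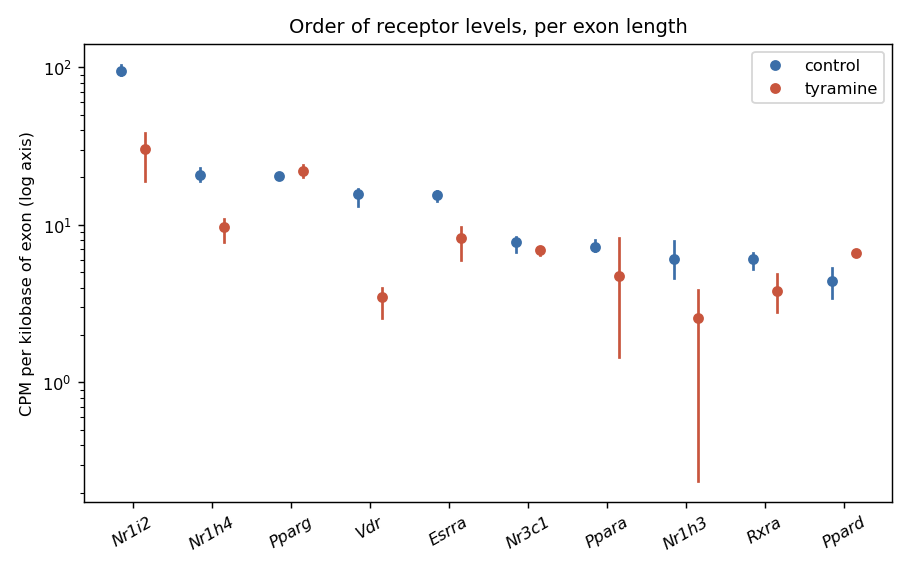
Level of each receptor gene in CPM per kilobase of exon (log axis), as the mean (point) and the range over 3 libraries (line), ordered by the control mean. Nr1i2 stands apart in controls at 95.5 and meets Pparg with tyramine, and Vdr moves from 15.6 to 3.50.

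Known target genes of each receptor were read from lists in the same fit. These lists are textbook targets, many of which are also enterocyte genes or answer to other factors, and 5 genes stand in more than 1 list. In each case the fall of the enterocyte markers stood beside the targets' values, and its part was not tested. The lists do not record whether a receptor raises or lowers each gene. A count of falling targets is therefore not a measure of receptor activity.

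Of the 13 PXR targets tested, 11 fell, 0 rose and 2 did not pass, with a median log2 fold change of -1.06. These counts depend on which genes the list holds. The pump gene Abcc2, placed in the FXR list and not in this one, rose 2.07-fold. Ces2a, a carboxylesterase, fell 9.10-fold from 626 ± 74.0 to 68.8 ± 7.97 CPM, and the cytochrome P450 genes Cyp3a25, Cyp2c55 and Cyp3a13 fell 8.27-fold, 4.73-fold and 1.73-fold. Their edgeR adjusted p-values ran from 2.9e-07 to 8.3e-05. Abcb1b, an efflux pump gene, and Gstm2, a glutathione transferase gene, did not pass (log2 fold changes -0.51 and -0.09). Cytochrome P450 and carboxylesterase genes have close copies, so reads may be split between them.

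Of the 8 FXR targets tested, 4 fell, 2 rose and 2 did not pass, with a median of -0.50. Slc51b, a subunit of the bile acid exporter of the basal membrane, fell from 14.4 ± 0.431 to 0.871 ± 0.708 CPM, whereas its partner Slc51a did not pass (log2 fold change 0.56, edgeR adjusted p = 0.63). The apolipoprotein genes Apoc2 and Apoa1 fell 8.63-fold and 14.0-fold, and Sdc1, a cell-surface proteoglycan gene, was the other that fell. Abcc2, an organic anion pump gene, went from 1085 ± 48.6 to 2242 ± 293 CPM and so rose 2.07-fold (edgeR adjusted p = 6.5e-05). The second rising gene, Abcb11, the bile salt export pump, was counted 0, 9 and 2 times in controls and 82, 78 and 197 times in tyramine libraries, and lost its call without control replicate 1 or 3, which left 1 rising. Fgf15, Nr0b2 and Fabp6, which define FXR activity in the ileum, were too low to test: Fabp6 had 0 counts in all libraries and Fgf15 had 40, 58 and 2 in controls and 0, 7 and 0 with tyramine.

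Of the 7 VDR targets tested, 4 fell, 1 rose and 2 did not pass, with a median of -1.33. S100g, the calcium-binding protein calbindin of enterocytes, went from 238 ± 9.87 to 46.1 ± 19.5 CPM and so fell 5.16-fold (edgeR adjusted p = 0.00021). Cldn2, a pore-forming claudin, fell 2.51-fold and Ceacam1, an adhesion molecule, 2.70-fold, and the metal transporter gene Slc30a10 was the other that fell. Cdkn1a, a cell cycle inhibitor gene that many stresses also induce, rose 3.14-fold from 36.9 ± 9.11 to 116 ± 7.52 CPM. Cyp24a1, the vitamin D hydroxylase that is the receptor's most direct readout, had 0 counts in all 6 libraries, and the calcium channel gene Trpv6 had 2 counts in 1 tyramine library. Without control replicate 2 or 3 the falling count was 2, S100g and Cldn2 remaining.

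Of the 16 glucocorticoid receptor targets tested, 4 rose, 4 fell and 8 did not pass, with a median of 0.53. The metallothionein genes Mt2 and Mt1, which also answer to metals, fell 4.95-fold and 4.10-fold. Klf9, a transcription factor gene, rose 3.75-fold from 8.44 ± 1.69 to 31.7 ± 6.92 CPM, and the clock gene Per1 rose 2.45-fold, the others that rose being Dusp1 and Errfi1. Fkbp5, the immunophilin that dampens the receptor, fell (log2 fold change -0.39, edgeR adjusted p = 0.030), as did Tgm2, and Tsc22d3, which encodes the leucine zipper protein GILZ, was at 15.2 ± 2.09 CPM in controls and 6.26 ± 4.57 CPM with tyramine (adjusted p = 0.15), and was called falling by limma-voom and without tyramine replicate 3. Leaving out control replicate 1 gave 2 that rose, leaving out control replicate 3 gave 1, and 2 fell when control replicate 1 or 2, or tyramine replicate 1, was left out.

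Of the 22 PPAR targets tested, 17 fell, 1 rose and 4 did not pass, with a median of -1.24. With 1 library left out, 12 to 16 fell. Hadha, a subunit of the mitochondrial trifunctional protein, fell 1.97-fold, and the fatty acid binding protein genes Fabp2 and Fabp1 fell 4.58-fold and 24.9-fold. The 1 rising gene was Plin2, a lipid droplet coat gene (log2 fold change 0.54), whose call was lost without control replicate 1 or 3. Cidec, another lipid droplet gene, did not pass (log2 fold change 0.23).

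Of the 13 LXR targets tested, 6 fell, 1 rose and 6 did not pass, with a median of -1.63. Abcg8 and Abcg5, the partner subunits of the sterol efflux pump of the apical membrane, fell 4.97-fold and 6.37-fold, Npc1l1, the sterol uptake protein gene, fell 3.49-fold, and Scd1, a fatty acid desaturase gene, fell 8.49-fold. Abca1, the pump that loads high-density lipoprotein, was counted 753, 831 and 847 times in controls and 393, 142 and 17 times in tyramine libraries and did not pass (edgeR adjusted p = 0.10), but was called falling by DESeq2, by limma-voom and without tyramine replicate 1 or 3. Like Nr1h3 itself, it was lowest in tyramine replicate 3. The rising gene, Mylip, which marks the LDL receptor for degradation, lost its call without any 1 control library or tyramine replicate 3, which left 0. Srebf1, the lipogenic factor gene induced by LXR, was at 33.4 ± 4.64 CPM in controls and 29.1 ± 12.5 CPM with tyramine (adjusted p = 0.71).

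Of the 16 genes in the list for estrogen-related receptors, which holds Esrra itself, 10 fell, 0 rose and 6 did not pass, with a median of -0.55. Acadm, the medium-chain acyl-CoA dehydrogenase gene that the PPAR list also holds, fell 2.51-fold from 192 ± 11.7 to 76.3 ± 19.4 CPM. The citric acid cycle gene Mdh2 fell 1.49-fold, and Uqcrc2, of respiratory complex III, fell 1.61-fold. Cycs, cytochrome c, did not pass (log2 fold change -0.28, edgeR adjusted p = 0.18). Falls in this list were smaller than in the PXR and PPAR lists by their medians, a difference that was not tested.

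**Figure D4:**
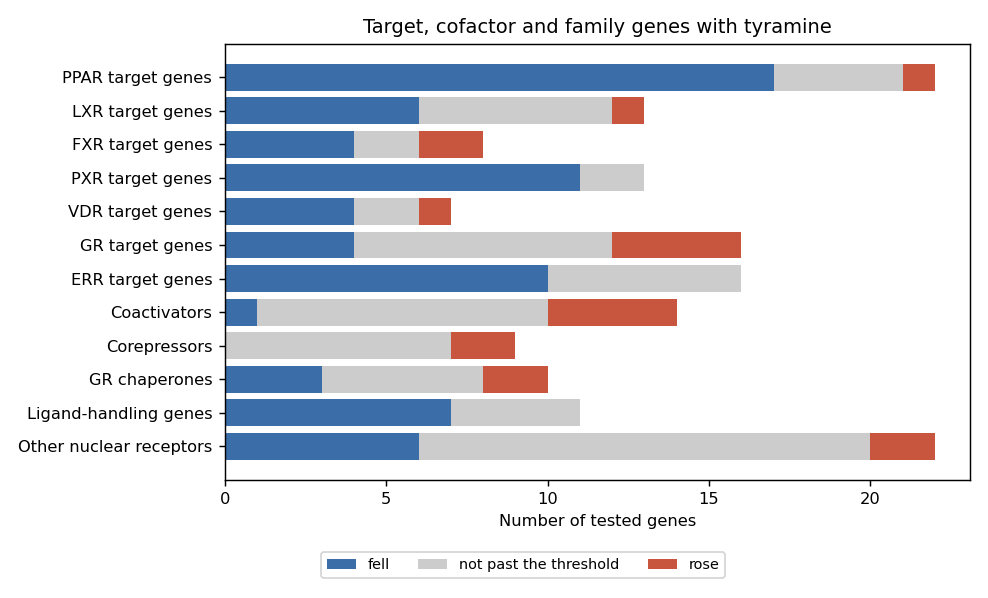
Number of tested genes in each list that fell (blue), did not pass the threshold (grey) or rose (red) with tyramine. The PPAR and PXR lists hold 17 of 22 and 11 of 13 falling genes, and the corepressor list holds 0 of 9. Over all genes tested, 13.3% fell.

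Cofactor genes, which the receptors recruit, were read next. Of 14 coactivators, 4 rose, 1 fell and 9 did not pass (median 0.19). Ncoa3, Ep300 and Ncoa2, which add or recruit histone acetylation, rose 1.63-fold, 1.47-fold and 1.41-fold, and Ncoa6 was the other riser. Ppargc1b, the partner PGC-1 beta of estrogen-related receptors, went from 19.0 ± 2.38 to 7.33 ± 0.753 CPM and so fell 2.59-fold (edgeR adjusted p = 0.0088). Its relative Ppargc1a was counted 271, 320 and 337 times in controls and 57, 143 and 9 times in tyramine libraries and did not pass (adjusted p = 0.080), but was called by DESeq2, by limma-voom and without tyramine replicate 2 or 3. Of the rising calls, 1 was left when libraries were scaled to their totals alone, 1 without control replicate 1 or 2, 0 without control replicate 3 and 2 without tyramine replicate 1. Ppargc1b lost its call without control replicate 2.

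Of 9 corepressors tested, 2 rose, 0 fell and 7 did not pass (median 0.09). The share called was 22.2%, near the 25.8% of all genes tested, of which 13.3% fell. At an unadjusted p under 0.05, 0 of the 9 fell by edgeR, and 1, Ncor1, was called falling when libraries were scaled to their totals alone. Sirt1, a deacetylase, went from 8.61 ± 2.28 to 39.5 ± 16.7 CPM and so rose 4.59-fold (edgeR adjusted p = 0.0013), and Lcor, a ligand-dependent corepressor, rose 2.21-fold but lost its call without control replicate 1 or 2, which left 1. Ncor1, a main corepressor gene, had a log2 fold change of -0.19. Among 10 chaperones of the glucocorticoid receptor, Hsp90aa1 and Hsp90ab1 rose 3.41-fold and 1.73-fold, Fkbp4, the co-chaperone that carries the receptor to the nucleus, fell (log2 fold change -0.68), Stub1 and Fkbp5 also fell and 5 did not pass. Of these 3 falls, 1 was left when control replicate 1 or 2, or tyramine replicate 2, was omitted. Both Hsp90 genes have processed copies, so their counts may be shared.

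Genes that make, break down or carry the ligands were often too low to test. Of 27 listed, 16 were too low to test, 6 of them with 0 counts in every library, among them Cyp27b1, which activates vitamin D, and Hsd11b1, which regenerates corticosterone. Of the 11 tested, 7 fell, 0 rose and 4 did not pass (median -1.41). Rbp2, the retinol binding protein of enterocytes, fell 7.78-fold from 1195 ± 49.7 to 153 ± 50.1 CPM, Bco1, which splits carotene, fell 3.26-fold, and the sterol synthesis gene Cyp51 fell 2.08-fold. Without control replicate 2 or 3, 4 of these fell.

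The rest of the nuclear receptor family was read in the same fit. Of 39 other receptor genes, 22 were tested, of which 6 fell, 2 rose and 14 did not pass, with a median log2 fold change of -0.48. Hnf4a and Hnf4g, factors of enterocyte identity, fell 2.32-fold and 6.63-fold, from 534 ± 34.5 to 231 ± 29.4 and from 220 ± 15.6 to 33.3 ± 12.3 CPM. Nr4a2, an immediate-early orphan receptor, went from 8.13 ± 1.21 to 29.9 ± 5.51 CPM and so rose 3.67-fold (edgeR adjusted p = 0.00092). Nr1d2, a clock repressor gene, was the other that rose, and the thyroid hormone receptor genes Thra and Thrb and Nr1i3 also fell. The share called was 36.4% of these against 40% of the 10 metabolic receptors, and 25.8% of all genes. Without control replicate 1 or 2, 3 fell, and without control replicate 2 or 3, 1 rose.

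Relatives of the members were also read, chosen after their values were seen. Nr1i3, which encodes the receptor CAR that shares targets with PXR, fell, from 395, 605 and 270 counts in the controls to 2, 46 and 46 in tyramine libraries (log2 fold change -3.64, edgeR adjusted p = 0.011), but not without control replicate 1 or 2. Nr1h2, the second LXR gene, was at 46.3 ± 7.08 CPM in controls and 46.5 ± 17.4 CPM with tyramine. Rxrb was at 7.79 ± 2.00 and 13.2 ± 2.25 CPM (edgeR adjusted p = 0.16), and Rxrg had 0 counts in all libraries. Per kilobase of exon, Rxra (5.24 to 6.62 CPM per kilobase) lay above Rxrb (1.44 to 2.44) in controls, and with tyramine their ranges overlapped (2.80 to 4.91 against 2.96 to 3.98).

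**Figure D5:**
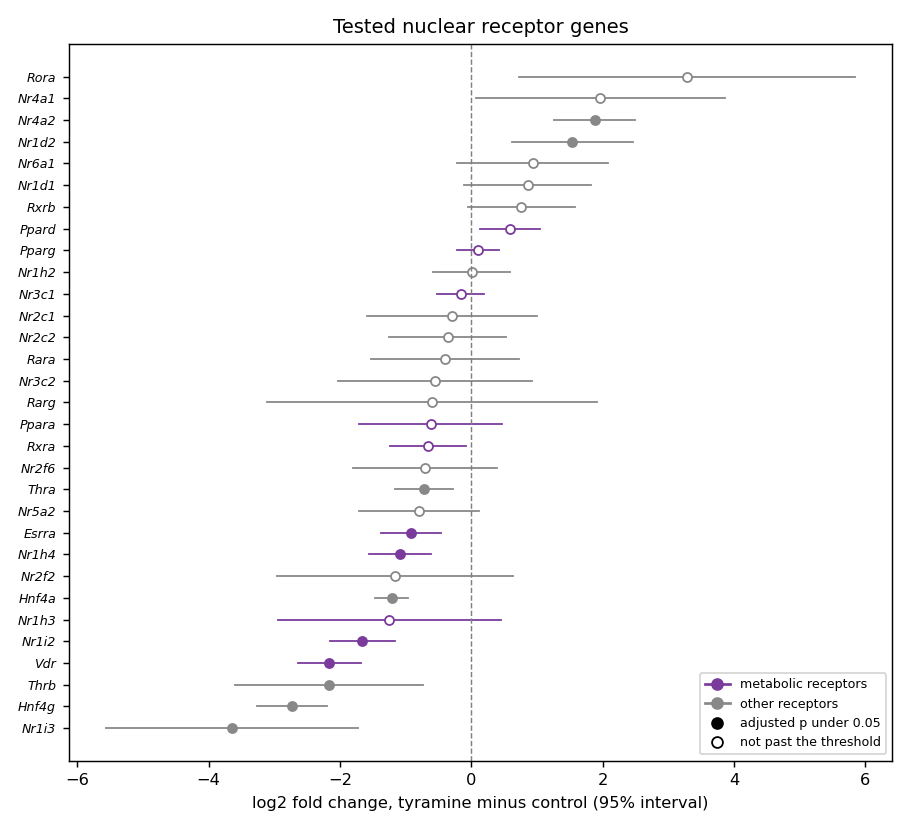
Log2 fold change with 95% interval for tested nuclear receptor genes, the 10 metabolic receptors in purple and the others in grey, with filled points where the adjusted p was under 0.05. Vdr and Nr1i2 lie near Thrb at the falling end, and the intervals of Pparg and Nr3c1 cross 0.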

How the data were processed

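The authors deposited 1 table of raw read counts by gene symbol, with a column for each of 6 libraries, matched by title. Totals ran from 28316372 to 35035955 counts. Per the labels, a stranded mRNA kit with molecular identifiers of 8 bases was used, and the submitters' processing notes name STAR 2.5.3a and mm10. The counting program, its annotation, its strand setting and any use of the identifiers were not given in the sources used here. Among counts of 1 to 8, 72.6% to 78.7% per library were even, so counts are not read here as independent molecules. They nevertheless entered every filter and fit unchanged.

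Genes passing filterByExpr (minimum count 10, total 15) in edgeR 4.0.16 (R 4.3.3) were scaled by TMM factors and tested with the quasi-likelihood F-test, robust, with group as the only term. The SE is the log2 fold change over the root of F, and intervals use the fit's degrees of freedom at 95%. CPM are counts scaled to the TMM-adjusted library size. Exon lengths and positions are those of GENCODE M21. Alternatives were DESeq2 1.42.0, limma-voom (limma 3.58.1), other scalings and filters, robust estimation off, a replicate block and each library left out.

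The receptors and lists were chosen with earlier results of these data known. Genes named are all 10 receptors and up to 4 called genes with the smallest p per list, of which some are not reported here. Gene names beyond these (such as Abca1, Abcb11, Abcb1b, Cidec, Cycs, Cyp24a1, Dusp1, Errfi1, Fgf15, Fkbp5, Gstm2, Lcor, Mylip, Ncoa6, Ncor1, Nr1d2, Nr1h2, Nr1i3, Plin2, Ppargc1a, Rxrb, Sdc1, Slc30a10, Slc51a, Srebf1, Tgm2, Thra, Thrb, Trpv6 and Tsc22d3) were chosen after their values were seen. Same-numbered libraries were not treated as pairs in the main fit.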

Additional observations from a re-analysis of the deposited data

How the results depend on the processing

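The 10 receptors gave 140 log2 fold changes under the 14 alternatives, of which 0 changed sign, 0 calls were lost and 4 were gained: Ppard with DESeq2 (0.58) and limma-voom (0.59), and Ppara (-1.30) and Rxra (-0.89) without tyramine replicate 3. The receptors called falling stayed at 4 under every alternative but that one. With DESeq2 and with limma-voom 1 receptor rose, and the coactivators falling were 2 with either tool. Scaled to library totals alone, 1 coactivator rose and 1 corepressor fell. Limma-voom left 0 rising LXR targets. With the replicate block, LXR targets rising were 0 and coactivators rising 1, and the receptors falling stayed at 4. Deviations of same-numbered libraries correlated at -0.028, -0.015 and 0.00090, so no shared replicate effect was visible. Whether same-numbered libraries were handled together is not given, and these values cannot settle it. Across all genes, the rising share of calls was 48.5%, and 40.4% on library totals alone.

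Leaving out 1 library in turn, all tested genes rising ran from 934 to 1510 and falling from 1035 to 1797, against 1518 and 1609. Rising counts ran from 0 to 1 for PPAR and LXR targets, 1 to 2 for FXR targets and other nuclear receptors, 1 to 4 for glucocorticoid receptor targets, 0 to 4 for coactivators and 1 to 3 for corepressors. Falling counts ran from 12 to 16 for PPAR targets (main count 17), 7 to 11 for estrogen-related receptor targets and 9 to 11 for PXR targets. They ran from 5 to 7 for LXR targets, 3 to 4 for FXR targets and 2 to 5 for VDR and glucocorticoid receptor targets. For coactivators they ran from 0 to 2, for chaperones 1 to 3, for ligand-handling genes 4 to 8 and for other nuclear receptors 3 to 7. Of 392 list and gene counts, 345 stayed within 1.5 times the main count. Nr1h3 had 17 counts in tyramine replicate 3, whose total was not lower than that of tyramine replicate 1, and the cause was not tested. With 3 libraries per group the intervals of Ppara and Nr1h3 span more than 2 log2 units.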
